A study of Homo sapiens with 9 samples.

Results

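The SCF ubiquitin ligase of the breast cancer line MDA-MB-231 was described at the RNA level through 8 of the 60664 genes listed. These were the scaffold and core genes *CUL1*, *SKP1* and *RBX1*, the F-box genes *SKP2*, *BTRC* and *FBXW7*, the SKP2 cofactor gene *CKS1B*, and *CDKN1B*, which encodes the substrate p27. The set was selected on earlier results of these samples, in which *SKP2* and *CUL1* were known to differ between the groups, and the other genes were added for their role. The values of the 8 genes are therefore given as a description with no p-value. The lists of other genes below were also drawn up with earlier results of these data known. Their shares called and p-values are likewise a description. Each of the 3 groups held 3 samples, all taken on day 6. The scramble control (SC) cells, which carried a non-targeting hairpin, were kept in medium of 0.77 cP or in medium of 8 cP, and the shTRPV4 cells, which carried a hairpin against *TRPV4*, were kept at 8 cP. As the study's methods describe, the medium was thickened with methylcellulose, and the hairpins were delivered by lentivirus and held under puromycin. The labels give the SC cells the genotype WT and the shTRPV4 cells that of a *TRPV4* knockdown. One hairpin sequence against *TRPV4* was used for these cells, so that its own effects and those of the knockdown cannot be told apart. Samples of shTRPV4 cells at 0.77 cP were not analysed here, so that viscosity and knockdown were each compared at 1 level of the other. The source of the replicates (separate cultures or repeats of one) is not given in the labels, so the spread between samples may be technical.

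The libraries held between 64571681 and 103518036 counted reads. Levels are in CPM, the counts relative to a library size scaled by the TMM method. *TRPV4* checked the labels. Its level lay between 0.424 and 0.525 CPM in SC cells at 0.77 cP, between 0.264 and 0.647 CPM in SC cells at 8 cP, and between 0.0128 and 0.144 CPM in shTRPV4 cells. Against SC cells at 8 cP this was -2.51 (SE 0.49) on the log2 scale (edgeR adjusted p = 0.0022). Markers of the line were abundant. The sum of *VIM*, *CD44*, *AXL* and *EGFR* ran from 3156 to 3409 CPM in SC cells at 0.77 cP, 3397 to 3447 at 8 cP, and 3002 to 3121 in shTRPV4 cells. Between SC cells, *AXL* was higher at 8 cP (log2 0.22, edgeR adjusted p = 0.015) and *VIM* lower (-0.17, 0.0095). Their adjusted p stayed below 0.05 in 6 and 8 of 9 fits without 1 sample. Both were lower in shTRPV4 cells than in SC cells at 8 cP (*AXL* -0.31, edgeR adjusted p = 0.0017, and *VIM* -0.28, 0.00019). The oestrogen and progesterone receptor genes *ESR1* and *PGR* and the epithelial cadherin gene *CDH1*, which this line lacks or holds at low levels, stayed at or below 0.133 CPM, while *ERBB2* lay between 89.6 and 96.8 CPM. Of 7 markers of leukocytes, endothelium, liver and muscle, *PECAM1* (1.98 to 6.22 CPM) made up nearly all of the sum of 2.24 to 6.5 CPM, and *CDH5*, the other endothelial marker, was at 0 in 8 of the 9 samples. *PECAM1* was lower in SC cells at 8 cP than at 0.77 cP, by -0.86 on the log2 scale (edgeR adjusted p = 0.0016). Its part in the results below was not tested.

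An SCF ligase is built on the cullin CUL1, which binds the RING protein RBX1 at one end and the adaptor SKP1 at the other. RBX1 brings in the ubiquitin-loaded E2 enzyme, and SKP1 holds one of many F-box proteins, each of which picks its own substrates. SKP2, with the small protein CKS1B, marks the phosphorylated cyclin-dependent kinase inhibitor p27 for degradation as cells enter S phase. BTRC takes β-catenin, IκBα and other phosphorylated proteins, and FBXW7 takes cyclin E, MYC and JUN. These steps act on proteins, whereas the values here are of RNA, and in bulk RNA a change in the share of cells that express a gene cannot be told apart from a change per cell.

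*SKP2*, the F-box gene of p27, was lowest in SC cells at 0.77 cP, higher in SC cells at 8 cP and highest in shTRPV4 cells at 8 cP. The 3 samples of SC cells at 0.77 cP held 26.1, 24.1 and 28.2 CPM. The samples of SC cells at 8 cP held 38.0, 35.6 and 41.1 CPM, and those of shTRPV4 cells held 52.8, 50.8 and 46.2 CPM. No sample of one group reached the range of another. The means were 26.1 ± 2.08, 38.2 ± 2.79 and 49.9 ± 3.38 CPM (SD, n = 3). The fitted log2 fold change was 0.55 (SE 0.070) for SC cells at 8 cP against 0.77 cP, a level 46.0% higher. It was 0.39 (SE 0.069) for the knockdown at 8 cP, 30.6% higher than the control of that viscosity. In the third comparison, which sets the knockdown at 8 cP against the control at 0.77 cP, it was 0.93 (SE 0.070), 90.8% higher. In the 9 fits that left out 1 sample, these values ranged from 0.50 to 0.62, from 0.33 to 0.44 and from 0.88 to 1.00. Whether a difference passed a false discovery rate (FDR) of 0.05 in edgeR's quasi-likelihood test, as all 3 did here, is given for *SKP2*, *CUL1* and the other 6 genes as a description only, since differences in these same samples chose the set, and it is no support for them. The 3 comparisons share samples, the SC cells at 8 cP being the treated group of the first and the control group of the second, so they are not independent. The *SKP2* locus lies at chr5:36151989-36196849 on the plus strand (GRCh38, GENCODE 44). Of its exon bases, 365 also belong to *NADK2*, read from the opposite strand, and whether the counting used the strand is not given in the sources used here. One pseudogene copy of *SKP2* is also listed. *NADK2* stood at 29.8 ± 1.87, 31.4 ± 0.768 and 34.2 ± 1.05 CPM, with a log2 fold change of 0.07 (edgeR adjusted p = 0.37) in the first comparison and 0.13 (edgeR adjusted p = 0.12) in the second.

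**Figure D1:**
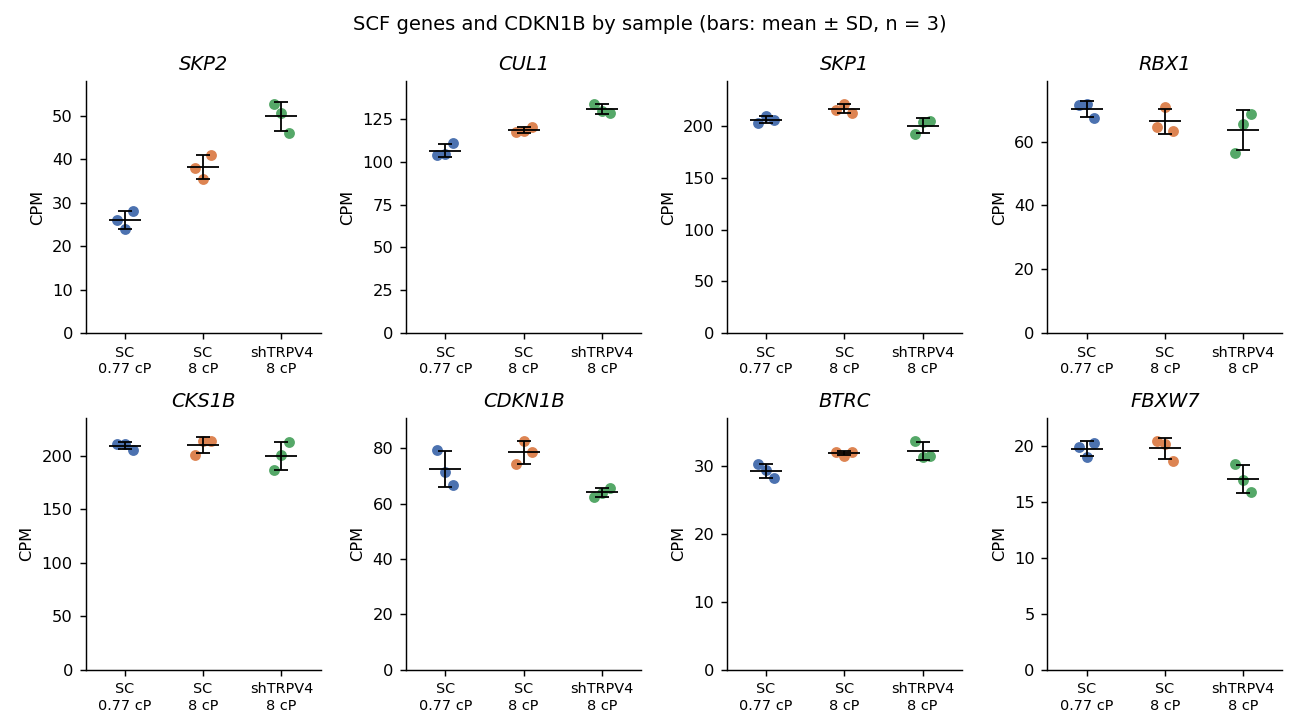
Level of each of the 8 genes in CPM (vertical axis, from 0) in the 9 samples (points), by group, with the mean and SD of the 3 samples as black bars. The groups of SKP2 (means 26.1, 38.2 and 49.9 CPM) and CUL1 (107, 119 and 131 CPM) do not overlap, while those of RBX1 and CKS1B do.

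*CUL1*, the scaffold, was ordered in the same way over a smaller range. It stood at 104.2, 104.5 and 111 CPM in SC cells at 0.77 cP, at 117, 118 and 120 CPM in SC cells at 8 cP, and at 134, 130 and 128 CPM in shTRPV4 cells. The 3 groups did not overlap, although their means of 107 ± 3.93, 119 ± 1.63 and 131 ± 2.85 CPM (SD, n = 3) were close. The log2 fold change was 0.15 (SE 0.043) in the first comparison, 0.14 (SE 0.043) in the second and 0.29 (SE 0.043) in the third, and each passed FDR 0.05. The first call was lost without SC 0.77 cP replicate 1 (log2 0.14), SC 0.77 cP replicate 2 (0.15) or SC 8 cP replicate 3 (0.15). The second was lost without SC 8 cP replicate 1 (0.13), replicate 2 (0.13) or replicate 3 (0.15), without shTRPV4 replicate 1 (0.12) or replicate 2 (0.15), and with no filter on low counts (0.14). The third was kept in all 9 such fits. *CUL1* lies at chr7:148697914-148801110 on the plus strand. An unnamed gene of the opposite strand, with which 461 exon bases are in common, held between 69 and 128 reads a sample, and 1 pseudogene copy of *CUL1* is listed.

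The other core genes and the SKP2 cofactor passed FDR 0.05 in none of the 3 comparisons. *SKP1*, the adaptor that joins CUL1 to every F-box protein, had means of 206 ± 3.24, 217 ± 4.42 and 200 ± 7.10 CPM (SD, n = 3). Its 3 samples of SC cells at 8 cP (216, 222 and 213 CPM) lay above all other samples, whose range was 192 to 210 CPM, and its log2 fold changes were 0.071 (SE 0.042), -0.11 (SE 0.042) and -0.042 (SE 0.042). *RBX1*, the RING subunit, overlapped between all groups, with means of 70.2 ± 2.41, 66.3 ± 4.04 and 63.5 ± 6.31 CPM and log2 fold changes of -0.081 (SE 0.065), -0.063 (SE 0.065) and -0.14 (SE 0.066). The last of these passed FDR 0.05 without shTRPV4 replicate 3 (-0.20) and with no filter on low counts (-0.14). *CKS1B* also overlapped throughout, at 210 ± 3.20, 210 ± 7.48 and 200 ± 13.3 CPM, with log2 fold changes of 0.0012, -0.069 and -0.067, each with an SE of 0.050. Pseudogene copies with which reads could be split are listed for *CKS1B* (7), *SKP1* (3) and *RBX1* (2), and 1137 exon bases of *SKP1* also belong to another gene of its strand, which had 0 counts in every sample.

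*CDKN1B*, the gene of p27 itself, was lower in shTRPV4 cells than in SC cells at the same viscosity. SC cells at 0.77 cP held 79.5, 71.5 and 66.7 CPM, a wide spread, and SC cells at 8 cP held 74.4, 82.7 and 78.6 CPM, so these 2 groups overlapped. The shTRPV4 samples held 62.5, 63.9 and 65.7 CPM, below every other sample. Group means were 72.6 ± 6.46, 78.6 ± 4.15 and 64.0 ± 1.59 CPM (SD, n = 3). The log2 fold change was 0.11 (SE 0.060) for viscosity, which did not pass FDR 0.05. For shTRPV4 against SC cells at 8 cP it was -0.30 (SE 0.060), 18.5% lower, a call made in all 9 fits that left out a sample. The third comparison, at -0.18 (SE 0.060), also passed but was lost without SC 0.77 cP replicate 1 (-0.10) or replicate 2 (-0.18), and without shTRPV4 replicate 1 (-0.16) or replicate 2 (-0.18). *CDKN1B* lies at chr12:12685498-12722369 and shares no exon bases with other genes.

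Set against each other within a sample, *SKP2* and *CDKN1B* gave a ratio that differed between the groups. The ratio of *SKP2* to *CDKN1B* counts was 0.328, 0.337 and 0.423 in SC cells at 0.77 cP, 0.511, 0.430 and 0.523 in SC cells at 8 cP, and 0.844, 0.795 and 0.703 in shTRPV4 cells. The 3 groups did not overlap, but the highest SC value at 0.77 cP and the lowest at 8 cP were close, at 0.423 and 0.430. The mean ratio was 0.363 ± 0.0526, 0.488 ± 0.0507 and 0.781 ± 0.0715 (SD, n = 3). Between the first and the second group *CDKN1B* overlapped and *SKP2* did not, and between the second and the third neither gene overlapped. The ratio of *SKP2* to its scaffold gene *CUL1* was 0.245 ± 0.0127, 0.322 ± 0.0202 and 0.382 ± 0.0189 in the same order, also without overlap. The ratio of the cofactor *CKS1B* to *CDKN1B* was 2.90 ± 0.219, 2.67 ± 0.0752 and 3.12 ± 0.131. These ratios are of reads, not of molecules, because the transcripts differ in length.

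**Figure D2:**
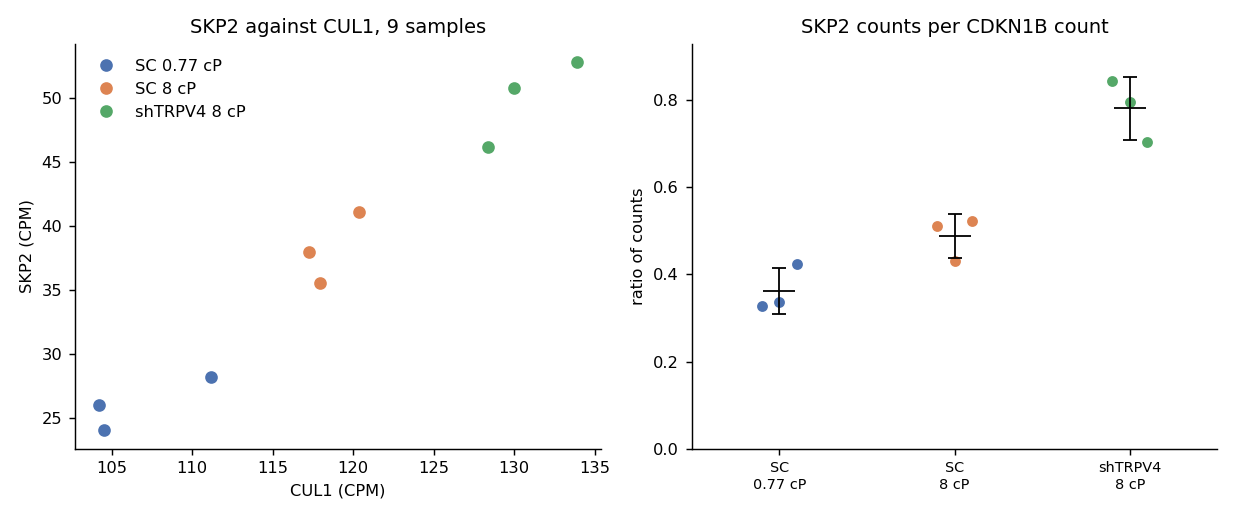
Left, SKP2 against CUL1 in CPM, each point 1 of the 9 samples, coloured by group. Right, the number of SKP2 counts per CDKN1B count in each sample (points) with the mean and SD of 3 samples (bars); the means are 0.363, 0.488 and 0.781.

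Neither of the 2 other F-box genes separated all 3 groups as *SKP2* did. *BTRC*, which encodes β-TrCP, held 30.3, 29.5 and 28.3 CPM in SC cells at 0.77 cP, 32.1, 31.6 and 32.2 CPM in SC cells at 8 cP, and 33.8, 31.4 and 31.6 CPM in shTRPV4 cells. The cells at 0.77 cP lay below both groups at 8 cP, which overlapped with each other. The log2 fold changes were 0.12 (SE 0.051), 0.014 (SE 0.051) and 0.14 (SE 0.051). Of these the third passed FDR 0.05, and it was lost without SC 0.77 cP replicate 2 (0.15) or replicate 3 (0.12) or shTRPV4 replicate 1 (0.10) or replicate 2 (0.16), with upper quartile scaling (0.12), with no filter (0.14) and with the 6 samples alone (0.14). *FBXW7*, a tumour suppressor gene, held 19.9, 19.0 and 20.3 CPM in SC cells at 0.77 cP and 20.5, 20.1 and 18.7 CPM in SC cells at 8 cP, which overlapped (log2 fold change 0.00079, SE 0.066). In shTRPV4 cells it held 18.3, 16.9 and 15.9 CPM, below all other samples, the same order as for *CDKN1B*. The log2 fold change of *FBXW7* was -0.21 (SE 0.066) both against SC cells at 8 cP and against SC cells at 0.77 cP, and both passed FDR 0.05. The call against SC cells at 8 cP was lost without SC 8 cP replicate 1 (-0.19) or replicate 2 (-0.20) or shTRPV4 replicate 2 (-0.21) or replicate 3 (-0.16). That against SC cells at 0.77 cP was lost without SC 0.77 cP replicate 1 (-0.20) or replicate 3 (-0.18) or shTRPV4 replicate 2 (-0.21) or replicate 3 (-0.16).

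**Figure D3:**
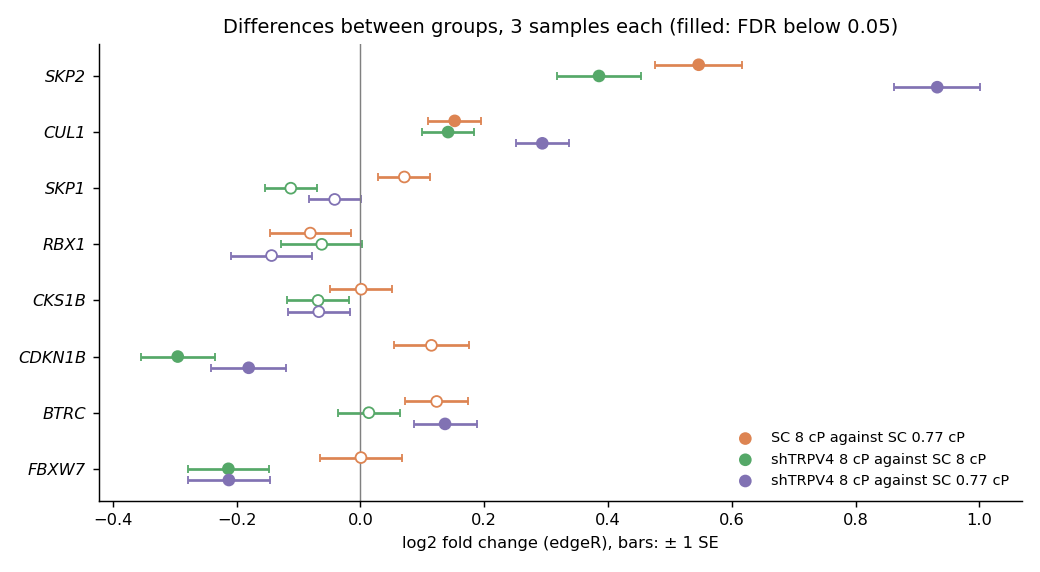
Log2 fold change (horizontal axis) of the 8 genes in the 3 comparisons, with bars of 1 SE; filled points passed FDR 0.05. SKP2 and CUL1 are filled and above 0 in all 3 comparisons, CDKN1B and FBXW7 are filled and below 0 in both comparisons of shTRPV4 cells.

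All 8 genes passed the filter on low counts. In the viscosity comparison 2 of them passed FDR 0.05, both higher, beside 19.3% of the 18264 genes tested (9.57% higher and 9.69% lower). In the knockdown comparison 4 passed, *SKP2* and *CUL1* higher and *CDKN1B* and *FBXW7* lower, beside 20.0% of all genes (9.02% higher and 11.0% lower). In the third comparison 5 passed, 3 higher and 2 lower, beside 42.4% of all genes (20.4% higher and 22.0% lower). Because the genes were chosen with such results known, these counts describe the set and nothing is read from them. The median log2 fold change of the 8 genes was 0.093, -0.066 and -0.055 in the 3 comparisons, against -0.0065, 0.00064 and -0.011 over all genes tested. The first count became 1 without SC 0.77 cP replicate 1 or 2 or SC 8 cP replicate 3. The second became 2 without SC 8 cP replicate 1 or 2 or shTRPV4 replicate 2. It also fell without SC 8 cP replicate 3 or shTRPV4 replicate 1, where *CUL1* was lost, and without shTRPV4 replicate 3, where *FBXW7* was lost. The third became 3 without any 1 sample of SC cells at 0.77 cP or without shTRPV4 replicate 1, and 2 without shTRPV4 replicate 2.

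Levels between genes were compared per kilobase of the Ensembl canonical transcript, in CPM per kilobase. In SC cells at 0.77 cP the order was *CKS1B* (269), *RBX1* (60.1), *CUL1* (33.9), *CDKN1B* (30.1), *SKP1* (22.0), *SKP2* (7.03), *BTRC* (4.88) and *FBXW7* (3.50). The place of *SKP1* depends on the length taken, since its canonical transcript has 9386 bases against 779 for *CKS1B*. The F-box genes of the set thus stood well below the core genes on this scale. Among 70 F-box genes with a length, *SKP2* ranked 27 in SC cells at 0.77 cP, 19 in SC cells at 8 cP and 15 in shTRPV4 cells, at 7.03, 10.3 and 13.4 CPM per kilobase. *BTRC* ranked 35, 33 and 33 and *FBXW7* ranked 43, 41 and 47. The 5 highest at 0.77 cP were *FBXW5* (95.4), *FBXO7* (35.1), *FBXL5* (26.9), *FBXO5* (25.0) and *FBXO8* (22.5). *FBXW5* and *FBXO7* held the first and the second place in all 3 groups.

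**Figure D4:**
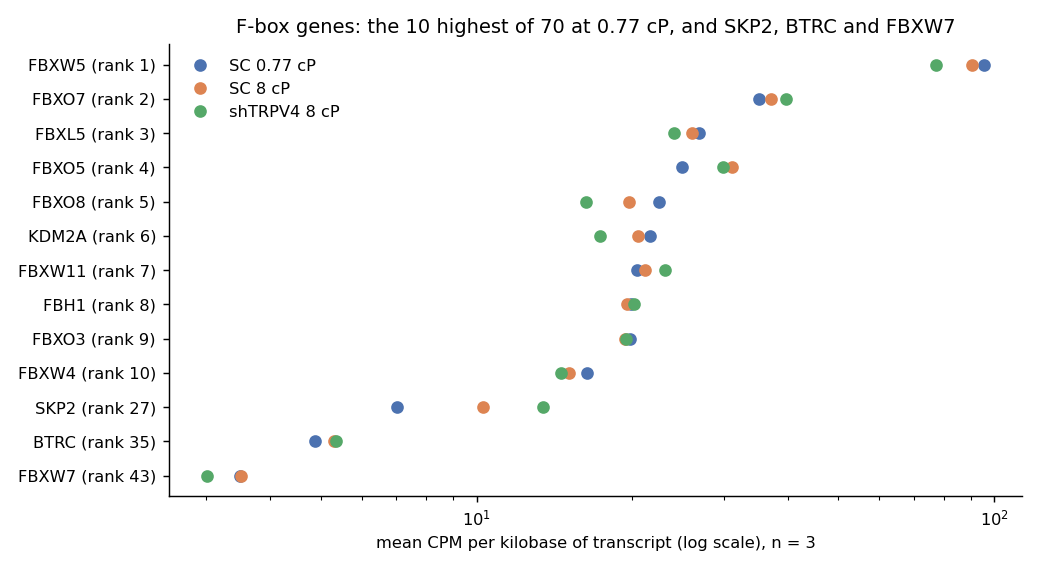
Mean level of F-box genes in CPM per kilobase of canonical transcript (horizontal log axis), 1 point for each group of 3 samples, with the rank among 70 F-box genes in SC cells at 0.77 cP. SKP2 is spread from 7.03 to 13.4, whereas FBXW7 lies between 3.02 and 3.50.

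Promoter windows of 300 bases, from 250 before to 50 after a transcription start, are shown for the pair that was higher in both comparisons (*SKP2*, *CUL1*), for the p27 gene (*CDKN1B*), and for *CKS1B*, whose level did not pass the test. The sequences are RefSeq's on GRCh38.p14, found for 7 of the 8 genes. The window at the start of the canonical transcript was taken. They lie at chr5:36151861-36152160, chr7:148698653-148698952, chr12:12717118-12717417 and chr1:154974431-154974730, all on the plus strand. Capitals mark matches on either strand to CCAAT (the NF-Y box), CACGTG (the E-box of MYC), GGCGGGAA and GGCGCGAA (E2F), TTTGAA (the core of the cell-cycle homology region, CHR), GGAATG (TEAD), CCGGAAG (ETS) and GGGCGG (the GC box).
SKP2: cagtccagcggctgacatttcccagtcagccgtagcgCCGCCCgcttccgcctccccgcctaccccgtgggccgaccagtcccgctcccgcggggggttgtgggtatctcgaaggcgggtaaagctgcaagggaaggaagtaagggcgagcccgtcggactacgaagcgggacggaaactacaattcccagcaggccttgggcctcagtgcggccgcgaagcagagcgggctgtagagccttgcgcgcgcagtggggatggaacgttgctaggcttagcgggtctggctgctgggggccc
CUL1: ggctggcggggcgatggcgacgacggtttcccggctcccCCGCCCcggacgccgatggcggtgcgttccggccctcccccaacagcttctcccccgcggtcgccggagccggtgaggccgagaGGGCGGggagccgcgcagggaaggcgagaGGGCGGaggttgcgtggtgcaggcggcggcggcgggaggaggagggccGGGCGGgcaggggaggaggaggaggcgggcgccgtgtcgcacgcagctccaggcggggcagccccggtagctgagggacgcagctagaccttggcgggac
CDKN1B: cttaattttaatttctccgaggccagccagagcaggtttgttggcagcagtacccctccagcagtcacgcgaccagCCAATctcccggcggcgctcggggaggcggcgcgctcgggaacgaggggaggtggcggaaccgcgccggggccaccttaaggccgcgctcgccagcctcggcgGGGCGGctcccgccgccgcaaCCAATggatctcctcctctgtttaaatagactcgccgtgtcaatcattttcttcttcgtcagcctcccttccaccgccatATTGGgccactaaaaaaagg
CKS1B: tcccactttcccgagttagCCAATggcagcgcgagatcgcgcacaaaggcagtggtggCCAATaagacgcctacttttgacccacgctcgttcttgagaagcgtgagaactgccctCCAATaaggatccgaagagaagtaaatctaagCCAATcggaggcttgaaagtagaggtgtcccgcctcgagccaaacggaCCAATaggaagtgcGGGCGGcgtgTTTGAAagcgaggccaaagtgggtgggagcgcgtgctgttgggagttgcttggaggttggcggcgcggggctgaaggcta
The windows were rich in G and C, at 67.3% in *SKP2*, 77.7% in *CUL1*, 62.3% in *CDKN1B* and 57.0% in *CKS1B*. The *SKP2* window held 1 GC box and no other of these motifs, and the *CUL1* window held 4 GC boxes, a motif present in 45.0% of the 35116 windows of this length, some of which overlap. The *CDKN1B* window held 3 CCAAT boxes and 1 GC box. That of *CKS1B* held 5 CCAAT boxes, 1 GC box and 1 CHR core, motifs found in 34.6%, 45.0% and 15.2% of all windows. None of the 7 windows held the E2F letters (3.16% and 0.96% of all windows) or the TEAD letters (14.0%). The E-box (7.26% of all windows) was in *RBX1* and the ETS letters (10.3%) in *SKP1*. These matches describe the letters of 1 window a gene, and the *SKP2* and *CUL1* windows shared the GC box alone.

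Beyond CUL1, SKP1 and RBX1, an SCF ligase depends on NEDD8, which is attached to the cullin to switch it on, on the COP9 signalosome, which takes NEDD8 off, on CAND proteins, which exchange F-box proteins, and on E1 and E2 enzymes. Of 40 such machinery genes, all tested, 9 passed FDR 0.05 for viscosity (7 higher, 2 lower; 22.5% against 19.3% of all genes), 6 for the knockdown (4 higher, 2 lower; 15.0% against 20.0%) and 14 in the third comparison (9 higher, 5 lower; 35.0% against 42.4%). Their median log2 fold change was 0.030, 0.0022 and 0.027. For viscosity the count was 1 without SC 0.77 cP replicate 1, 2 without SC 0.77 cP replicate 2, 5 without SC 8 cP replicate 2, and 0 without SC 8 cP replicate 3, where 10 genes had an unadjusted p below 0.05 in edgeR. Over all genes the share called in these fits was 7.58%, 10.3%, 14.5% and 7.56%, in the same order. DESeq2 with all samples called 11, beside 26.6% of all genes it tested. The calls for viscosity were *CUL3* (0.18, edgeR adjusted p = 0.020), *CUL2* (0.16, 0.030) and *CUL7* (-0.33, 0.0089) among other cullins and RBX2 (3 of 8). Of neddylation and cullin exchange genes (5 of 14) the largest were *UBE2F*, a NEDD8 E2 (0.22, edgeR adjusted p = 0.044), *GLMN*, an inhibitor of RBX1 (0.18, 0.046), and *DCUN1D3* (-0.23, 0.042). Of the COP9 signalosome *COPS3* (0.16, edgeR adjusted p = 0.032) was the 1 called of 10. Of 8 genes of ubiquitin E1, E2 and ARIH1, edgeR called 0 for viscosity, with 3 at an unadjusted p below 0.05, and DESeq2 called 2. Without SC 0.77 cP replicate 1 the calls of *CUL3* (0.14), *CUL2* (0.11), *CUL7* (-0.31), *UBE2F* (0.20), *GLMN* (0.15) and *COPS3* (0.14) were lost. Without SC 0.77 cP replicate 2 those of *CUL2* (0.19), *CUL7* (-0.27), *UBE2F* (0.20), *GLMN* (0.21), *DCUN1D3* (-0.14) and *COPS3* (0.16) were lost. Without SC 8 cP replicate 3 all 7 were lost, at 0.17 for *CUL3*, 0.15 for *CUL2*, -0.25 for *CUL7*, 0.27 for *UBE2F*, 0.18 for *GLMN*, -0.20 for *DCUN1D3* and 0.13 for *COPS3*. Those of *CUL2* (0.17), *UBE2F* (0.22), *GLMN* (0.17), *DCUN1D3* (-0.22) and *COPS3* (0.18) were also lost without SC 8 cP replicate 2, and those of *UBE2F* (0.21) and *DCUN1D3* (-0.23) without SC 8 cP replicate 1. *DCUN1D3* was further lost without SC 0.77 cP replicate 3 (-0.23), *UBE2F* (0.22), *GLMN* (0.19) and *DCUN1D3* (-0.22) without shTRPV4 replicate 2, and *UBE2F* (0.22) and *GLMN* (0.19) without shTRPV4 replicate 3. With all samples, *UBE2F* (0.22) and *GLMN* (0.18) were lost with the replicate number as a block, and so was *DCUN1D3* (-0.23). *UBE2F* (0.22) and *GLMN* (0.19) were lost with no filter on low counts, both with the 6 samples alone (0.22 and 0.18), and *GLMN* with upper quartile scaling (0.17).

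For the knockdown, *CAND2* was higher by 0.76 (edgeR adjusted p = 0.013) at a low level of 0.668 ± 0.141 CPM in SC cells and 1.13 ± 0.0574 CPM in shTRPV4 cells (SD, n = 3). *CAND2* shares 320 exon bases with *RPL32* of the opposite strand and 273 with another gene of its own strand. The part of these overlaps in its counts was not tested. For viscosity *CAND1* (0.16, edgeR adjusted p = 0.015) and *NAE1* (0.18, 0.015) had also been called higher. Their fits without 1 sample are not given. With the knockdown *CAND1* went the other way from *CAND2*, from 207 ± 2.06 to 193 ± 6.01 CPM (-0.099, edgeR adjusted p = 0.11). *CUL4B* was higher by 0.20 (edgeR adjusted p = 0.010), *GLMN* by 0.22 (0.019) and the E2 gene *UBE2G1* by 0.22 (0.0033), while *DCUN1D1* was lower (-0.21, 0.015), as was *COPS7A* (-0.17, 0.0098). The call of *UBE2G1* held in all 9 fits without 1 sample. Those of *CAND2* (0.61) and *GLMN* (0.19) were lost without SC 8 cP replicate 1, those of *DCUN1D1* (-0.19) and *COPS7A* (-0.15) without SC 8 cP replicate 2, that of *DCUN1D1* (-0.19) also without SC 8 cP replicate 3, that of *GLMN* (0.19) also without shTRPV4 replicate 1, and that of *CUL4B* (0.16) without shTRPV4 replicate 2. *RNF7*, the relative of *RBX1* that serves CUL5, did not pass in either comparison (-0.016 and -0.092, edgeR adjusted p = 0.87 and 0.26), and the sign of the first turned in some fits.

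The other F-box genes went both ways. Of 68 sought, 58 passed the filter, and 13 were called for viscosity (6 higher, 7 lower; 22.4% against 19.3% of all genes), 10 for the knockdown (4 higher, 6 lower; 17.2% against 20.0%) and 32 in the third comparison (16 and 16; 55.2% against 42.4%). Their medians were -0.0087, -0.00019 and -0.031. The viscosity count was 5 and 4 without SC 0.77 cP replicate 1 and 2, and 7 without any 1 sample of SC cells at 8 cP, and the third count was 21 without SC 0.77 cP replicate 2. Over all genes the viscosity share was then 7.58% and 10.3%, and 14.7%, 14.5% and 7.56% without SC 8 cP replicate 1, 2 and 3. The third share was 34.6%. The 3 largest rises with viscosity were in *FBXL18* (0.32, edgeR adjusted p = 0.024), *FBXO5* (0.32, 0.0035) and *FBXO45* (0.28, 0.0041). *FBXO5*, which encodes EMI1, an inhibitor of the anaphase-promoting complex, went from 51.3 ± 4.81 to 64.0 ± 2.74 CPM (SD, n = 3). The 3 largest falls were in *FBXO2* (-0.98, edgeR adjusted p = 0.0030), *FBXL8* (-0.59, 0.0038) and *FBXO48* (-0.34, 0.016), and *FBXO2* fell from 5.29 ± 1.11 to 2.67 ± 0.601 CPM. The call of *FBXL18* was lost without SC 0.77 cP replicate 1 (0.32) or 2 (0.26) or SC 8 cP replicate 1 (0.31) or 3 (0.29). Of the 9753 exon bases of *FBXL18*, 3251 also belong to an unnamed gene of the opposite strand. The call of *FBXO48* was lost without SC 0.77 cP replicate 1 (-0.34) or 2 (-0.30) or SC 8 cP replicate 1 (-0.27).

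With the knockdown the largest rises were in *FBXL6* (0.34, edgeR adjusted p = 0.00055), *FBXO27* (0.30, 0.0082) and *FBXO32* (0.26, 0.0036), an F-box gene known from muscle wasting. The largest falls were in *FBXL20* (-0.33, edgeR adjusted p = 0.012), *FBXO8* (-0.27, 0.0064) and *FBXO21* (-0.26, 0.00070), and that of *FBXL20* was lost without SC 8 cP replicate 2 (-0.29). *FBXL6* held 17.3 ± 0.452, 20.2 ± 0.870 and 25.6 ± 0.808 CPM in the 3 groups, the same order as *SKP2*, with no overlap. Of its 3375 exon bases, 1069 also belong to *SLC52A2* of the opposite strand and 179 to another gene of its own strand. The part of these bases in its counts was not tested. *FBXW11*, the close relative of *BTRC*, had a log2 fold change of 0.051 (edgeR adjusted p = 0.48) for viscosity and 0.13 (edgeR adjusted p = 0.053) for the knockdown. The latter passed FDR 0.05 with DESeq2 (adjusted p = 0.046). In edgeR it passed with at least 10 counts in every sample (adjusted p = 0.045) and with the 6 samples alone (0.0365). It also passed there with the replicate block (adjusted p = 0.044) and without SC 0.77 cP replicate 1 (0.034).

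p27 shares its role with p21 (*CDKN1A*) and p57 (*CDKN1C*), which also inhibit cyclin-dependent kinases and are also taken by SKP2. *CDKN1A* fell in both comparisons, from 216 ± 5.24 to 155 ± 1.66 CPM with viscosity (log2 fold change -0.48, SE 0.042, edgeR adjusted p = 2.36e-06) and to 117 ± 4.28 CPM in shTRPV4 cells (-0.41, SE 0.043, edgeR adjusted p = 8.95e-06; SD, n = 3). Its 3 groups did not overlap. *CDKN1C* fell with viscosity from 15.0 ± 2.14 to 10.7 ± 0.721 CPM (-0.48, edgeR adjusted p = 0.0046) and stood at 9.37 ± 0.865 CPM in shTRPV4 cells (-0.20, edgeR adjusted p = 0.20). *CCNE1*, the gene of cyclin E, which drives entry into S phase and whose kinase p27 restrains, and a substrate of both SKP2 and FBXW7, rose in both comparisons. It held 13.4, 12.9 and 15.8 CPM in SC cells at 0.77 cP, 18.8, 18.4 and 20.5 CPM in SC cells at 8 cP, and 25.8, 23.6 and 24.3 CPM in shTRPV4 cells. Those groups did not overlap either, and the changes were 0.45 (edgeR adjusted p = 0.0015) and 0.36 (edgeR adjusted p = 0.0035). *CCNA2*, of cyclin A, rose with viscosity from 202 ± 10.9 to 252 ± 8.80 CPM (0.31, edgeR adjusted p = 0.00076) and had a change of -0.11 (edgeR adjusted p = 0.13) with the knockdown. *CKS2*, the relative of *CKS1B*, did not pass in these 2 comparisons (-0.11 and -0.062, edgeR adjusted p = 0.24 and 0.52). Of the 9 genes of the p27 family and its kinase partners, 4 passed for viscosity (2 higher, 2 lower; 44.4% against 19.3% of all genes), 2 for the knockdown (1 and 1; 22.2% against 20.0%) and 8 in the third comparison (3 higher, 5 lower; 88.9% against 42.4%). Their median log2 fold change was -0.065, -0.096 and -0.16.

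The RNA of substrates was examined by F-box protein. *CDKN1A*, *CDKN1C* and *CCNE1* are in both the list of SKP2 substrates and that of the p27 family. *CCNE1* is also in the list of FBXW7 substrates. The counts of these lists are therefore not independent. Of 8 genes of other SKP2 substrates, 4 passed for viscosity (1 higher, 3 lower; 50% against 19.3% of all genes) and 3 for the knockdown (1 higher, 2 lower; 37.5% against 20.0%). Besides *CDKN1A*, *CDKN1C* and *CCNE1*, *FOXO1* was lower in shTRPV4 cells (-0.56, edgeR adjusted p = 0.018), a call lost without SC 8 cP replicate 1 (-0.42) or 2 (-0.54) or shTRPV4 replicate 3 (-0.50). Of 11 genes of BTRC substrates, 4 passed for viscosity (3 higher, 1 lower; 36.4% against 19.3%) and 4 for the knockdown (1 higher, 3 lower; 36.4% against 20.0%), and the first count was 7 with DESeq2, with no filter or without shTRPV4 replicate 1. *NFKBIA*, of IκBα, fell with viscosity (-0.56, edgeR adjusted p = 0.00034), and *CLSPN*, of the checkpoint protein claspin, rose (0.53, edgeR adjusted p = 0.0033). With the knockdown *CDC25A* rose (0.38, edgeR adjusted p = 0.0023), and *YAP1* (-0.53, 1.73e-06) and *WEE1*, which holds back the entry into mitosis (-0.27, 0.0026), fell. Of 7 genes of FBXW7 substrates, 5 passed for viscosity (1 higher, 4 lower; 71.4% against 19.3%) and 5 for the knockdown (2 higher, 3 lower; 71.4% against 20.0%), the latter count being 3 without SC 8 cP replicate 1 or 2 or shTRPV4 replicate 1 or 2.

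*MYC* and *JUN* were the largest falls among the FBXW7 substrates. *MYC* went from 434 ± 7.96 to 192 ± 2.33 CPM with viscosity (-1.18, edgeR adjusted p = 6.4e-10) and stood at 176 ± 14.8 CPM in shTRPV4 cells, where its range overlapped with that of SC cells at 8 cP (-0.12, edgeR adjusted p = 0.125). *JUN* went from 744 ± 78.7 to 386 ± 27.4 CPM (-0.95, edgeR adjusted p = 1.85e-06) and to 281 ± 31.2 CPM in shTRPV4 cells (-0.46, edgeR adjusted p = 0.0011). With the knockdown *MCL1* was lower (-0.35, edgeR adjusted p = 8.5e-05) and *KLF5* was higher (0.19, edgeR adjusted p = 0.029), the latter lost without SC 8 cP replicate 1 (0.18) or 2 (0.15) or shTRPV4 replicate 1 (0.16) or 2 (0.20). Among 7 regulators of SKP2, FBXW7 and p27, 1 passed for viscosity, the S-phase transcription factor gene *E2F1* (0.28, edgeR adjusted p = 0.0044), 14.3% against 19.3% of all genes. For the knockdown 2 passed (28.6% against 20.0%), *UBAC1* (-0.15, edgeR adjusted p = 0.038), of the ligase that takes p27 in G1, and *FZR1* (-0.13, 0.034), of the activator of the complex that degrades SKP2. The latter count was 0 without SC 8 cP replicate 1 or 2 or shTRPV4 replicate 1 or 2, and 1 without SC 8 cP replicate 3 or with no filter. The viscosity count was 3 without SC 0.77 cP replicate 3, and 2 without shTRPV4 replicate 1, with no filter, with the 6 samples alone and with the replicate number as a block.

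**Figure D5:**
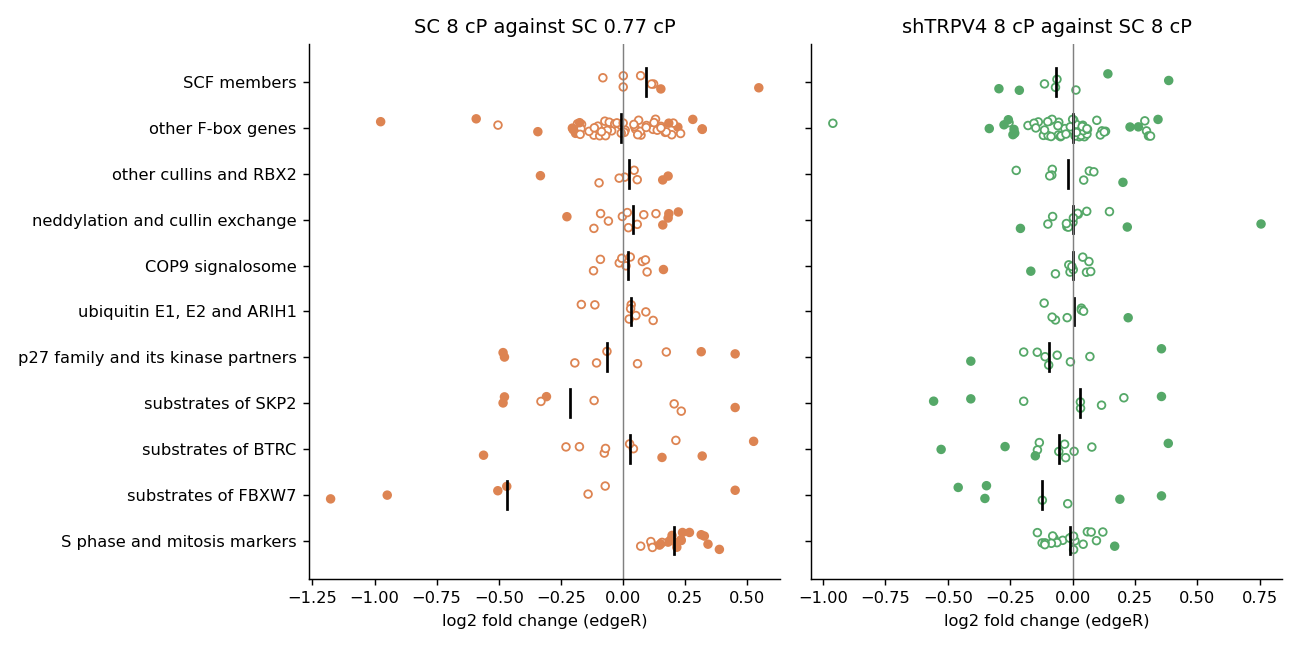
Log2 fold change (horizontal axis) of each tested gene (points) of the lists, for viscosity (left) and the knockdown (right); filled points passed FDR 0.05, and the black line is the median of a list. The S phase and mitosis markers have a median of 0.21 on the left and -0.0085 on the right.

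Because *SKP2* is itself expressed in step with the cell cycle, 20 S phase and mitosis markers were measured beside it. For viscosity 14 of 20 (70%) were higher, beside 9.57% of all genes, and 0 lower, beside 9.69%, with a median log2 fold change of 0.21. Their summed level lay between 4274 and 4763 CPM in SC cells at 0.77 cP and between 5073 and 5443 CPM in SC cells at 8 cP. The ribonucleotide reductase gene *RRM2* (0.39, edgeR adjusted p = 0.0055) and the replication helicase gene *MCM4* (0.34, 0.0036) rose most. The count was 9 without SC 0.77 cP replicate 1 or SC 8 cP replicate 3, beside 7.58% and 7.56% of all genes called in either direction. For the knockdown 1 of 20 was higher and 0 lower, beside 9.02% and 11.0% of all genes. It was *MCM7* (0.17, edgeR adjusted p = 0.042). The median was -0.0085, and the sum in shTRPV4 cells ran from 5000 to 5418 CPM, overlapping with SC cells at 8 cP. That single call was lost without SC 8 cP replicate 1 (0.15) or 2 (0.14), without shTRPV4 replicate 1 (0.14), 2 (0.19) or 3 (0.17), or without SC 0.77 cP replicate 1 (0.17). The count was 2 without SC 0.77 cP replicate 3, with DESeq2, with upper quartile scaling and with the 6 samples alone. *SKP2* thus rose with viscosity beside a rise of 14 of the 20 markers, and with the knockdown beside a rise of 1. The part of the markers in the *SKP2* difference was not tested.

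The genes whose level was most like that of *SKP2* were *IPO7*, a nuclear import receptor gene (Pearson's r = 0.995), *PYGO1* (0.993), *NUP155*, of the nuclear pore (0.992), *CDK12* (0.992) and *VIPR1* (0.991). The measure was the correlation of log2 CPM over the 9 samples among the 9452 genes that averaged 10 CPM or more. For *CUL1* it was 0.986. The 9 samples fall into 3 groups, so these values mostly state that the group means have the same order, and they are given as a description. The levels of *IPO7* in the 3 groups were 307 ± 11.8, 364 ± 12.0 and 414 ± 16.8 CPM, and those of *VIPR1* were 18.3 ± 1.12, 30.3 ± 1.41 and 42.1 ± 5.62 CPM (SD, n = 3). Among the 8 genes the correlation with *SKP2* was 0.799 for *BTRC*, -0.313 for *SKP1*, -0.482 for *CDKN1B*, -0.517 for *CKS1B*, -0.623 for *FBXW7* and -0.713 for *RBX1*, over the same samples and libraries.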

How the data were processed

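RNA was measured in 9 samples of MDA-MB-231 cells, which the sample titles place in 3 groups of 3. As stated by the authors, strand-specific poly(A) libraries were mapped to GRCh38.p13 with HISAT2 2.2.1 and exon reads were totalled for the genes of Ensembl 104 with HTSeq 0.13.5. The authors deposited raw counts of each sample, which are not normalized. The strand option of the counting is not given in the sources used here. Apart from this, reads shared by near-identical copies could be lost or split.

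Counts were analysed in R 4.3.3 with edgeR 4.0.16 (TMM scaling, filterByExpr, glmQLFit and glmQLFTest, 1 coefficient per group, all 9 samples), and 18264 genes were tested with Benjamini-Hochberg adjustment and a threshold of 0.05. For genes with many reads, totals of 64571681 to 103518036 counts leave the spread between samples (common coefficient of variation 0.0633) as the limit on precision. For genes with few reads, such as *TRPV4* and *CAND2* (49 to 108 reads a sample, SE 0.20 for the knockdown), the number of reads limits it too. The sources used here name no molecular identifiers. Symbols were matched for 60463 of 60664 genes, and for 188 of 189 listed genes, with positions and lengths from GENCODE 44. Only the edgeR fit of the viscosity comparison was tested on simulated data. These were drawn from the model that edgeR assumes, with planted changes larger than most of those given here. The other methods were not tested in this way.

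The 8 genes and all lists were chosen with earlier results of these data known. The named genes were the 8, *TRPV4*, their closest relatives, the largest changes past FDR 0.05 with at least 1 CPM in each list (3 rises and 3 falls for F-box genes, 2 and 2 otherwise), the 5 genes most correlated with *SKP2*, and the 5 F-box genes highest per kilobase. Alternatives were DESeq2 1.42.0, upper quartile scaling, no filter, at least 10 counts in every sample, the 6 samples of a comparison alone, the replicate number as a block, and leaving out each sample.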

Additional observations from a re-analysis of the deposited data

How the results depend on the processing

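The log2 fold change of *SKP2*, a gene chosen on these samples, was 0.54 to 0.56, 0.38 to 0.39 and 0.92 to 0.94 in the 3 comparisons under the 6 alternatives. Over the repeated fits of single genes, 1246 kept their side of the threshold, 118 lost a call, 7 gained one and 6 were counted as turned in sign, none of them called. The 6 were of *RNF7* and *TRPV4* for viscosity: *RNF7* ranged from -0.036 to 0.016 without 1 sample, and *TRPV4* from -0.33 to 0.27 without 1 sample and was 0.00016 with DESeq2. The 1246 include uncalled values of the 8 SCF genes that turned in sign, which were not counted apart. Without 1 sample, *FBXW7* (-0.017 to 0.048) and *CKS1B* (-0.0062 to 0.038) crossed 0 for viscosity. For the knockdown, *BTRC* (-0.022 to 0.031) and *RBX1* (-0.12 to 0.015) did so. Without 1 sample, the number of the 8 SCF genes called was 1 to 2 for viscosity, 2 to 4 for the knockdown and 2 to 5 in the third comparison. That of other F-box genes was 4 to 19 for viscosity, 8 to 12 for the knockdown and 21 to 31 in the third, and that of machinery genes was 0 to 11, 4 to 7 and 12 to 15. Over all genes, the viscosity count fell from 3518 to 1409 and 1927 without SC 0.77 cP replicate 1 and 2 and to 1418 without SC 8 cP replicate 3, and the knockdown count from 3649 to 2361 and 2179 without SC 8 cP replicate 1 and 2. With the replicate number as a block, 2, 4 and 5 of the 8 genes were called. No pairing by number was visible: same-numbered samples correlated at -0.169 to 0.270 in their deviations from the group means, and other samples at -0.241 to 0.266. Such overlapping ranges cannot exclude that same-numbered samples belong together. The replicate block left 3475, 3607 and 7731 genes called. The cause of these shifts was not tested.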

Other observations

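Genes near *SKP2* were looked at after it was seen that *NUP155*, one of the genes most like it, lies 1091 kb away on chromosome 5. Of 22 tested genes within 2 Mb of *SKP2*, 5 were higher and 2 lower for viscosity, with a median log2 fold change of 0.10, beside 9.57% and 9.69% of all genes tested. For the knockdown 2 were higher and 3 lower, with a median of 0.043, beside 9.02% and 11.0% of all genes. The largest rise past FDR 0.05 among these genes for viscosity was that of *NUP155* itself (0.35), which stood at 71.3 ± 4.20, 91.2 ± 5.16 and 107 ± 8.51 CPM (SD, n = 3). *NUP155* was picked for its likeness to *SKP2*. Its rise, and its place among the higher genes of both comparisons, are therefore a description and no support for a change of the region. *LMBRD2*, which lies 0.102 kb from *SKP2*, had a log2 fold change of 0.065 for viscosity and -0.077 for the knockdown. Around *CUL1*, 36 tested genes gave 5 higher and 6 lower for viscosity (median 0.0052) and 5 higher and 0 lower for the knockdown (median 0.093). Around *CDKN1B*, 31 tested genes gave 1 higher and 2 lower for viscosity, and 2 higher and 4 lower for the knockdown (median -0.078). Around *FBXW7*, 21 genes gave 0 higher and 3 lower for the knockdown, with a median of -0.12. The shares of all genes given for *SKP2* hold for these regions too, which were not tested as sets.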
